A study of Homo sapiens with 12 samples.

Results

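The 9 genes described here, ACADVL, ACAA1, ACAA2, HADHA, HADHB, ECHS1, ETFA, CPT1A and CPT2, encode enzymes that move fatty acids into mitochondria or break them down there and in peroxisomes. Their events were found by gene symbol in the retained intron and skipped exon tables and kept at a mean of at least 10 inclusion plus skipping reads per library, which left 182 of 196 listed events, out of 145406 of 176249 in the whole series. The study knocked down SFSWAP, a regulator of splicing, in 293A-TOA cells, a derivative of the HEK293 embryonic kidney line, and sequenced polyA RNA. The 4 groups of 3 biological replicates are siSFSWAP, siNT (non-target siRNA), siSFSWAP/siUPF1 and siNT/siUPF1, which makes 12 libraries. All of them, the controls included, were exposed to 1 μM TG, an inhibitor of the enzyme that removes O-GlcNAc, over the last 6 hr, and were harvested 5 days after transfection. SFSWAP siRNA was a mixture of oligonucleotides at 40 nM and UPF1 siRNA was used at 30 nM. UPF1 is an RNA helicase that nonsense-mediated decay (NMD) requires. The siRNAs act on a whole culture, so remaining target RNA is averaged over its cells, and cells without TG were not analysed here.

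Fatty acid β-oxidation shortens an acyl-CoA by repeated rounds of dehydrogenation, hydration, a further dehydrogenation and thiolytic cleavage. CPT1A and CPT2 carry long-chain acyl groups across the mitochondrial membranes as carnitine esters, ACADVL catalyses the first dehydrogenation of long-chain acyl-CoA and passes its electrons to the flavoprotein that contains ETFA, and HADHA and HADHB form the trifunctional protein that completes the round for long chains. ECHS1 hydrates short-chain enoyl-CoA, ACAA2 is the mitochondrial and ACAA1 the peroxisomal 3-ketoacyl-CoA thiolase. An intron kept in an mRNA, or an extra exon, often places a stop codon upstream of the normal one, and such RNAs can be held in the nucleus or degraded by NMD.

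ACADVL and ACAA1 were picked because their inclusion differed between siSFSWAP and siNT libraries in these same tables, so their values under SFSWAP knockdown, in either UPF1 background, are a description and carry no p. The other 7 genes were taken for their role in the pathway. The inclusion level of an event is the share of its inclusion form (intron kept, or exon kept) with the reads of each form set per effective length, on a scale of 0 to 1. Differences and log2 odds ratios are siSFSWAP over siNT, siSFSWAP/siUPF1 over siNT/siUPF1, siNT/siUPF1 over siNT and siSFSWAP/siUPF1 over siSFSWAP, so that a positive value means higher inclusion in the group named first. An event was called when its p, adjusted by Benjamini-Hochberg over all events tested, did not exceed 0.05. The rule kept a 157 nt ACAA1 intron at 12.8 mean reads (mean levels 0.65 in siSFSWAP and 0.954 in siNT) and left out a 340 nt ECHS1 exon at 2.83 (0.728 and 1.0). With UPF1 knockdown an 89 nt ACADVL intron was kept at 10.5 reads (0.942 in siSFSWAP/siUPF1 and 1.0 in siNT/siUPF1) and an 85 nt one left out at 9.83 (0.943 and 1.0). Retained introns were listed for ACADVL, ACAA1 and ECHS1 only. Introns were numbered on the MANE Select transcripts of GENCODE, and coordinates are on GRCh38.

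Over the whole series, reads at retained intron events ranged from 1812794 to 3030493 per library (median 2539239) and reads at skipped exon events from 25938092 to 40637076 (median 34952335). SFSWAP itself had 18.3, 26.8 and 20.4 reads per 1000000 in siSFSWAP, against 52.7, 54.6 and 55.8 in siNT, a ratio of 0.402, and the ratio was 0.411 with UPF1 knockdown. UPF1 reads in siNT/siUPF1 were 0.296 times those in siNT. No library of one group lay within the other's range in any of these (p = 0.1 by a two-sided exact permutation test, which cannot go lower with 3 libraries against 3). Of 8 markers of HEK293 cells, VIM, KRT8 and PAX2 had events, and their summed reads were 376 to 405 per 1000000 in siSFSWAP, 380 to 512 in siNT, 370 to 454 in siSFSWAP/siUPF1 and 404 to 527 in siNT/siUPF1. KRT18, NEFM, NEFL, INA and LHX1, and all 10 markers of blood, endothelium, liver and muscle cells, had 0 events in the tables.

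The sequences of the introns and exons on which the results turn were read from the genome and are printed 5′ to 3′ on the strand of the gene. The first set is 5 of the 6 ACADVL introns that were tested, all on chromosome 17, plus strand, with the first in-frame stop codon of the intron-containing RNA in capitals. They span chr17:7220047-7220121 (intron 1), chr17:7223731-7223812 (intron 12), chr17:7223876-7223967 (intron 13), chr17:7224070-7224145 (intron 14) and chr17:7224715-7224808 (intron 18).
ACADVL intron 1: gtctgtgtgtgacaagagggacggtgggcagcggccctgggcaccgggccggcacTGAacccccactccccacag
ACADVL intron 12: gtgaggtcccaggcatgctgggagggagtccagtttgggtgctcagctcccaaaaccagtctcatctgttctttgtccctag
ACADVL intron 13: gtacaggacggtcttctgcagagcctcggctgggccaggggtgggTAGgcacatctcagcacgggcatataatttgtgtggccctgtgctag
ACADVL intron 14: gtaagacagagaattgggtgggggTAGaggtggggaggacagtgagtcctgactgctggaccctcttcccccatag
ACADVL intron 18: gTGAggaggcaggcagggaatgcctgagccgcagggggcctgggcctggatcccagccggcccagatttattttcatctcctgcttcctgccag
Intron 18 carries TGA from its base 2. In introns 1, 13 and 14 the stop begins at bases 56, 46 and 25. Intron 12 has no capitals because its reading frame runs through it and the first stop codon falls downstream of it. That stop, at chr17:7223836 in exon 13, still lies upstream of the normal one. The 6 introns tested are short and rich in G and C, with a median length of 85.5 nt and a median GC content of 60.8%, against 128 nt and 55.8% over all introns tested for SFSWAP knockdown.

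The ACAA1 set, on chromosome 3, minus strand, shows exon 9 in its longer form (chr3:38126162-38126352), with the 11 bases that the 180 nt form (chr3:38126162-38126341) lacks in capitals, and the intron before it (chr3:38126342-38126509), with its first in-frame stop codon in capitals. The same 11 bases end intron 8, because the forms of the exon differ in their 3′ splice site.
ACAA1 exon 9, longer form: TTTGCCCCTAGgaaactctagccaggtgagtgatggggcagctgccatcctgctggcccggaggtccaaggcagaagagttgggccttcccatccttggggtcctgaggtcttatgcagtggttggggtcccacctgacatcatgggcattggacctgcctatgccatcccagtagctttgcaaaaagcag
ACAA1 intron 8: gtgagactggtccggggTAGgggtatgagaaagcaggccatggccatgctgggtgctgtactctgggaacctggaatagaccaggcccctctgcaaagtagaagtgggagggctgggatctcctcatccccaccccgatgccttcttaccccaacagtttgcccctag
The last sequence is an exon within an intron of HADHA that brings an in-frame stop codon into the RNA (in capitals). It lies in intron 10 (chr2:26210695-26210814, minus strand) and has TAA from its base 97.
HADHA 120 nt exon: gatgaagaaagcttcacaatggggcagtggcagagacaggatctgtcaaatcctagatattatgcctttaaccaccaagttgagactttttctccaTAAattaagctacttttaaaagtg

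ACADVL introns were retained less often in siSFSWAP than in siNT cells, at each of the 6 introns tested. ACADVL spans 7219938 to 7225266 on chromosome 17 in 20 exons, and 10 retained intron events passed the read minimum, of which 4 had fewer than 10 skipping reads and were not tested. The inclusion levels did not overlap at 6 of 6 introns and 5 were called with lower retention. Over all introns tested, 24.6% did not overlap and 10.4% were called, 9.10% with lower retention, and since ACADVL was picked by this contrast nothing is read from its count. Leaving out the siSFSWAP library listed 1st or 2nd left 3 calls, and limma on the log2 odds, dispersions that were not moderated and reads that were not filtered left 0 each.

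Intron 18 differed most. Its inclusion level was 0.111, 0.204 and 0.137 in siSFSWAP, against 0.463, 0.601 and 0.782 in siNT. The means were 0.151 ± 0.048 in siSFSWAP and 0.615 ± 0.16 in siNT (SD, n = 3 each), a difference of -0.464 and a log2 odds ratio of -3.08 (SE 0.55). All siSFSWAP libraries lay below all siNT libraries. In reads, the intron form had 10, 20 and 13 in siSFSWAP and 42, 44 and 56 in siNT, while the spliced form had 41, 40 and 42 in siSFSWAP and 25, 15 and 8 in siNT. The siSFSWAP libraries thus held fewer reads of the intron form and more of the spliced form.

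Intron 17, the neighbour of intron 18, was the most retained of the 6 in siNT cells. Its level was 0.455, 0.565 and 0.768 in siSFSWAP, against 0.836, 0.929 and 1 in siNT, a difference of -0.326 and a log2 odds ratio of -3.0 (SE 0.81). The siNT library listed 3rd had 0 spliced reads of 117, which allows up to 2.56% of its reads to be of that form. Introns 12, 13 and 14 were spliced from most transcripts in both groups. Intron 13 was at 0.0612, 0.0697 and 0.0833 in siSFSWAP, against 0.326, 0.213 and 0.268 in siNT, a difference of -0.198 (log2 odds ratio -2.2, SE 0.34). Intron 12 was at 0.0424, 0.0704 and 0.0526 in siSFSWAP, against 0.206, 0.137 and 0.187 in siNT, a difference of -0.121 (-1.84, SE 0.37). Intron 14 was at 0.0347, 0.0962 and 0.084 in siSFSWAP, against 0.256, 0.148 and 0.261 in siNT, a difference of -0.15 (-1.66, SE 0.54). None of these 3 introns had a siSFSWAP library within the range of the siNT libraries. Intron 1, near the 5′ end, was at 0.337, 0.451 and 0.406 in siSFSWAP, against 0.631, 0.532 and 0.752 in siNT, a difference of -0.24 on 12 to 36 intron reads and 3 to 19 spliced reads per library, and was not called.

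**Figure D1:**
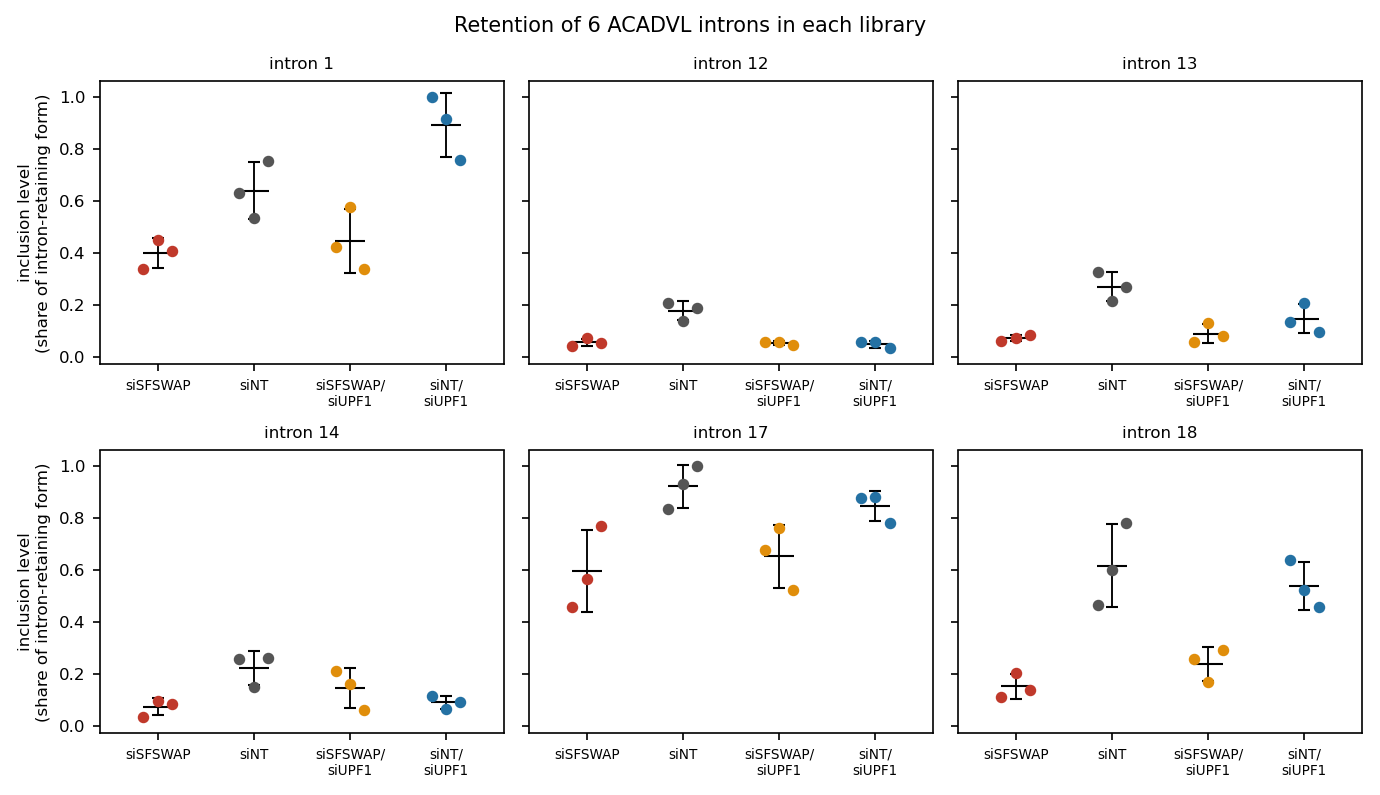
Inclusion level (0 to 1) of the ACADVL introns tested, 1 panel per intron, 1 point for each library in siSFSWAP, siNT, siSFSWAP/siUPF1 and siNT/siUPF1 and the mean and SD of 3 libraries as bars. At intron 18 the siSFSWAP libraries sit between 0.111 and 0.204 and the siNT libraries between 0.463 and 0.782, while at intron 12 only the siNT libraries stand above 0.1. Introns 13 and 14 have other flanking exon ends in the groups with UPF1 siRNA.

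With UPF1 knockdown 4 of the 6 ACADVL introns were lower and 2 higher in siSFSWAP/siUPF1 than in siNT/siUPF1. Intron 18 was at 0.255, 0.166 and 0.293 in siSFSWAP/siUPF1, against 0.639, 0.523 and 0.456 in siNT/siUPF1. The means were 0.238 ± 0.0652 in siSFSWAP/siUPF1 and 0.539 ± 0.0922 in siNT/siUPF1 (SD, n = 3 each), a difference of -0.301 and a log2 odds ratio of -1.97 (SE 0.53). This was the 1 member intron called of 7 tested in this background, where 3.57% of all introns were called, 2.59% with lower retention. The groups did not overlap at 3 of the 7, against 18.1% of all introns. All 7 are of ACADVL or ACAA1, which were picked by this contrast, so the call and these counts are a description. Intron 18 was called in 0 of the 5 fits that leave out any library but the siNT/siUPF1 library listed 3rd, and without that library introns 1, 13 and 18 were called. It was not called by limma on the log2 odds, with its own dispersion or with no filter on reads.

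Introns 1 and 17 lay on the same side as intron 18 without being called. Intron 1 was at 0.422, 0.577 and 0.336 in siSFSWAP/siUPF1, against 1, 0.915 and 0.758 in siNT/siUPF1, a difference of -0.446. Intron 17 was at 0.678, 0.76 and 0.521 in siSFSWAP/siUPF1, against 0.878, 0.881 and 0.78 in siNT/siUPF1, a difference of -0.193. At both the groups did not overlap. Introns 13 and 14 are listed in this table with other flanking exon ends than without UPF1 knockdown, so their levels stand side by side and were not compared across backgrounds. Intron 13 was at 0.0564, 0.128 and 0.0773 in siSFSWAP/siUPF1, against 0.135, 0.205 and 0.0956 in siNT/siUPF1 (difference -0.0579). Intron 14 was at 0.21, 0.161 and 0.061 in siSFSWAP/siUPF1, against 0.112, 0.0642 and 0.0912 in siNT/siUPF1 (difference 0.0551). The groups overlapped at both.

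Intron 12 is the one tested ACADVL intron whose retained form has its first stop codon outside the intron, though still upstream of the normal one. The groups overlapped at intron 12 with UPF1 knockdown. It was at 0.0568, 0.0554 and 0.0433 in siSFSWAP/siUPF1, against 0.0552, 0.0554 and 0.0312 in siNT/siUPF1, a difference of 0.00457. The siNT libraries were therefore the only high ones of the 4 groups, with a mean of 0.176 ± 0.0355, against 0.0551 ± 0.0142 in siSFSWAP, 0.0518 ± 0.00744 in siSFSWAP/siUPF1 and 0.0473 ± 0.0139 in siNT/siUPF1 (SD, n = 3 each). Between siNT/siUPF1 and siNT the difference was -0.129 (log2 odds ratio -2.04, SE 0.4), lower in 3 of 3 siNT/siUPF1 libraries. This comparison uses the siNT libraries by which ACADVL was picked, so its values are a description as well.

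No member intron was called for UPF1 knockdown. All 6 introns compared are of ACADVL or ACAA1, which were picked with the siNT and siSFSWAP libraries that serve as reference here. Their counts and values are therefore a description. With non-target siRNA, 0 of 6 were called (3 at an unadjusted p under 0.05, and 0 called by limma on the log2 odds), where 0.0659% of all introns were called. At 3 of the 6 the groups did not overlap, against 14.5% of all introns. Intron 18 of ACADVL differed by -0.0759 (siNT/siUPF1 over siNT) and intron 17 by -0.0755, each with overlapping groups. Intron 1 was higher in siNT/siUPF1 by 0.253 in non-overlapping groups (log2 odds ratio 2.54, SE 1.18). In SFSWAP knockdown cells 0 of 6 member introns were called as well (0 at an unadjusted p under 0.05, 0 by limma), with 0.166% of all introns called, and intron 18 stood at a difference of 0.0874 (siSFSWAP/siUPF1 over siSFSWAP). The groups overlapped at all 6 of these, while 9.19% of all introns did not overlap.

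Most ACADVL exons were included in nearly all transcripts. Exon 10, the exon event with most reads, had levels of 1, 0.992 and 0.992 in siSFSWAP and 1 in each siNT library. Its 113 to 256 reads per siNT library allow up to 1.17% to 2.65% of the reads to be skipping reads. Exon 3 was skipped more often, with levels of 0.657, 0.65 and 0.484 in siSFSWAP, against 0.545, 0.692 and 0.75 in siNT, and groups that overlapped. Exon 15 was at 0.965, 1 and 1 in siSFSWAP, against 0.939, 0.956 and 0.954 in siNT, without overlap. Of 18 exon events kept without UPF1 knockdown, 15 had fewer than 10 skipping reads, 3 were tested and 0 were called, and with UPF1 knockdown 10 of 27 were tested and 0 called. In those 10 the level was higher in siSFSWAP/siUPF1 than in siNT/siUPF1 at 9, with differences up to 0.313, and the groups did not overlap at 5, against 21.6% of all exons. ACADVL was picked by this contrast, so these counts are a description. Exon 7 was at 0.964, 1 and 1 in siSFSWAP/siUPF1, against 0.891, 0.858 and 0.945 in siNT/siUPF1 (0 or 1 skipping reads, against 3 to 9), and skipping it moves the stop codon upstream. Such events share reads, since several forms of exons 6, 7 and 11 are listed.

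Exon 9 of ACAA1 was skipped less often in siSFSWAP than in siNT cells. ACAA1 lies on chromosome 3 (38122715 to 38137127, minus strand, 12 exons), and exon 9 is 180 nt long, so skipping it keeps the frame and the normal stop codon. Its level was 0.977, 0.917 and 0.792 in siSFSWAP, against 0.305, 0.701 and 0.446 in siNT. The means were 0.895 ± 0.0944 in siSFSWAP and 0.484 ± 0.201 in siNT (SD, n = 3 each), a difference of 0.411 and a log2 odds ratio of 3.2 (SE 0.71), and the groups did not overlap. In reads, 1, 3 and 11 skipped the exon in siSFSWAP and 34, 10 and 22 in siNT. The spread inside siNT was wide, and the siNT library listed 2nd came nearest to the siSFSWAP libraries.

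With UPF1 knockdown the same exon was at 1, 1 and 0.962 in siSFSWAP/siUPF1, against 0.565, 0.342 and 0.64 in siNT/siUPF1. The means were 0.987 ± 0.022 in siSFSWAP/siUPF1 and 0.516 ± 0.155 in siNT/siUPF1 (SD, n = 3 each), a difference of 0.472, again without overlap. Skipping reads were 0, 0 and 1 in siSFSWAP/siUPF1 and 12, 56 and 15 in siNT/siUPF1. A count of 0 allows up to 4.62% to 6.52% of the reads to be skipping reads there, which is a share of reads and not a level. The longer form of the exon, which uses the 3′ splice site 11 bases upstream and counts the same skipping reads, was at 0.97, 0.898 and 0.765 in siSFSWAP, against 0.254, 0.672 and 0.422 in siNT. UPF1 knockdown with non-target siRNA left exon 9 at a difference of 0.0316 (log2 odds ratio 0.02, SE 0.52), and in SFSWAP knockdown cells the difference was 0.0918, with overlapping groups in both.

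The forms of exon 9 are the 2 member exons called of 28 tested without UPF1 knockdown, where 7.76% of all exons were called with higher inclusion and 4.21% with lower. At 8 of the 28 the groups did not overlap, against 25.9% of all exons. They are also 2 of the 4 called of 43 tested with UPF1 knockdown, where 7.52% of all exons were called, 4.05% with higher inclusion and 3.47% with lower. At 16 of the 43 the groups did not overlap, against 21.6% of all exons. Since ACAA1 was picked by these contrasts its share of these counts is a description. In both backgrounds the forms of exon 9 were called by limma at a pseudocount of 1 on the log2 odds but not at 0.5, and neither without moderated dispersions nor without the filter on reads.

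Intron 8, which ends at exon 9, was at 0.386, 0.372 and 0.49 in siSFSWAP, against 0.468, 0.674 and 0.782 in siNT, a difference of -0.225 with overlapping groups and no call. With UPF1 knockdown it was at 0.357, 0.426 and 0.538 in siSFSWAP/siUPF1, against 0.895, 0.334 and 0.35 in siNT/siUPF1, where the siNT/siUPF1 library listed 1st (23 intron reads and 1 spliced read) stood apart from the other 2. Retention of intron 8 thus did not separate the groups that exon 9 separated. The 157 nt form of the intron, which stops at the upstream 3′ splice site, had a difference of -0.548 for UPF1 knockdown with non-target siRNA (siNT/siUPF1 over siNT). It was not called and had 3 to 16 intron reads per library. ACAA1 was picked with the siNT libraries, so this is a description as well.

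A 44 nt exon within intron 2 of ACAA1 (chr3:38134509-38134552), whose inclusion moves the first stop codon, had most of its reads in siNT/siUPF1 cells. Its inclusion reads were 1, 0 and 0 in siSFSWAP, 0 in each siNT library, 0, 1 and 0 in siSFSWAP/siUPF1 and 6, 3 and 3 in siNT/siUPF1. The levels in siNT/siUPF1 were 0.454, 0.074 and 0.109. The counts of 0 rest on 7 to 36 reads of both forms and allow up to 8.33% to 42.9% of those reads. These limits are shares of reads and not levels per effective length, so they cannot be set against the levels in siNT/siUPF1. UPF1 knockdown with non-target siRNA gave an adjusted p of 0.25 for it, so the difference did not pass the test. It was chosen for description after its values were seen. Exon 5, skipped in part in every group, was at 0.808 ± 0.107 in siSFSWAP and 0.718 ± 0.0524 in siNT, and at 0.723 ± 0.0373 in siSFSWAP/siUPF1 and 0.639 ± 0.136 in siNT/siUPF1 (SD, n = 3 each), with overlap in each pair.

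**Figure D2:**
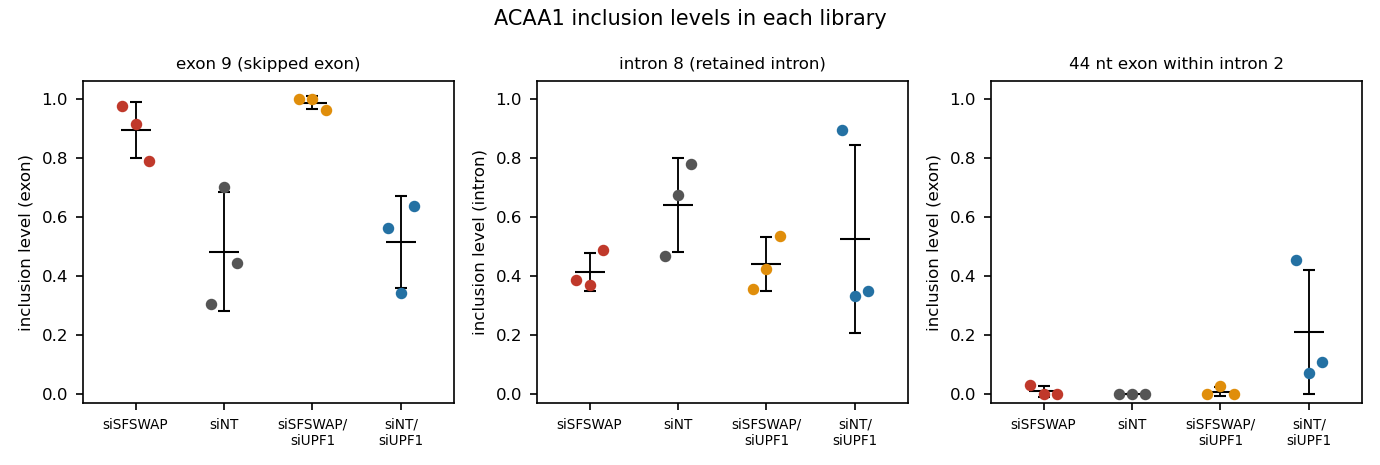
Inclusion level (0 to 1) of ACAA1 exon 9, intron 8 and the 44 nt exon within intron 2, 1 point for each library in siSFSWAP, siNT, siSFSWAP/siUPF1 and siNT/siUPF1 and the mean and SD of 3 libraries as bars. Exon 9 lies at 0.792 or above in all 6 libraries with SFSWAP siRNA and at 0.701 or below in the other 6.

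HADHA, the subunit of the trifunctional protein that carries its hydratase and hydroxyacyl-CoA dehydrogenase, gained an exon with a stop codon in siNT/siUPF1 cells. The 120 nt exon within intron 10 had 36, 75 and 19 inclusion reads in siNT/siUPF1, against 1, 6 and 4 in siNT. Its level was 0.0461, 0.139 and 0.0251 in siNT/siUPF1, against 0.00272, 0.0109 and 0.0077 in siNT, without overlap (log2 odds ratio 3.11, SE 0.94, adjusted p = 0.015 from the quasi-binomial test with limma-moderated dispersion). It is the 1 member exon called of 36 tested for UPF1 knockdown with non-target siRNA (6 at an unadjusted p under 0.05), where 1.17% of all exons were called, 0.778% with higher inclusion. At 10 of the 36 the groups did not overlap, against 14.1% of all exons. The call rests on single libraries, since leaving out the 2nd listed siNT/siUPF1 library gave an adjusted p of 0.11 and leaving out the 1st listed siNT library one of 0.078.

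In the UPF1 knockdown background the HADHA exon fell with SFSWAP knockdown. It had 2, 4 and 1 inclusion reads in siSFSWAP/siUPF1, against 36, 75 and 19 in siNT/siUPF1, beside 356, 296 and 331 skipping reads in siSFSWAP/siUPF1 and 337, 210 and 333 in siNT/siUPF1. The means were 0.00332 ± 0.00245 in siSFSWAP/siUPF1 and 0.0701 ± 0.0606 in siNT/siUPF1 (SD, n = 3 each), lower in 3 of 3 libraries. The log2 odds ratio was -4.37 (SE 1.05, adjusted p = 2.6e-06, limma-moderated test). In this comparison the exon reached the minimum of inclusion reads only through siNT/siUPF1, the group where it is high. This p is therefore not independent support for the difference. Without UPF1 knockdown there were 6, 8 and 7 inclusion reads in siSFSWAP and 1, 6 and 4 in siNT, with overlapping levels (log2 odds ratio 0.31, SE 0.82, adjusted p = 0.86). The difference between the backgrounds had a log2 ratio of odds ratios of -4.68 (SE 1.48) and an adjusted p of 0.99 in the limma-moderated fit, so the SFSWAP effect was not shown to depend on UPF1. Nor was it shown to be the same in both backgrounds, since this test seldom finds a change. On simulated counts it recovered 0 of 100 exons changed by 1 log2 unit and 4 of 100 changed by 2. On log2 odds (pseudocount 0.5) limma gave an adjusted p of 0.086 for SFSWAP knockdown in the UPF1 background and 0.48 for UPF1 knockdown, and with each event's own dispersion 0.4 and 0.74. Exon 5 of HADHA, with 557 to 1241 inclusion reads per library, had 0 to 2 skipping reads.

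ETFA, the α subunit of the flavoprotein that takes electrons from acyl-CoA dehydrogenases, had an exon of the same kind. The 93 nt exon within intron 10 is listed only with UPF1 knockdown and had 0, 2 and 0 inclusion reads in siSFSWAP/siUPF1, against 3, 13 and 18 in siNT/siUPF1. Its level was 0, 0.00205 and 0 in siSFSWAP/siUPF1, against 0.0024, 0.0102 and 0.0144 in siNT/siUPF1. The groups did not overlap, the log2 odds ratio was -3.85 (SE 1.74) and the adjusted p 0.028 (quasi-binomial test, limma-moderated). The exon reached the minimum of 10 inclusion reads only through siNT/siUPF1, the group where it is high, so this p is not independent support for the difference. A count of 0 allows up to 3 reads, or 0.52% to 0.542% of the reads here, for counting error only. The lowest siNT/siUPF1 library also had 3 inclusion reads. The adjusted p was 0.17 and 0.16 without the siSFSWAP/siUPF1 library listed 1st or 3rd, and 0.06 and 0.11 without the siNT/siUPF1 library listed 2nd or 3rd.

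A 133 nt exon within intron 1 of ETFA, with a stop codon of its own, had 9, 9 and 5 inclusion reads in siNT/siUPF1 and 1, 2 and 3 in siNT. Its levels, 0.138, 0.0575 and 0.0434 in siNT/siUPF1 and 0.00429, 0.012 and 0.0199 in siNT, did not overlap (log2 odds ratio 2.73, SE 1.11, adjusted p = 0.21). It was at 0.0344 ± 0.0249 in siSFSWAP/siUPF1 and 0.0796 ± 0.051 in siNT/siUPF1 (SD, n = 3 each), with overlap and an adjusted p of 0.64. A 123 nt exon within intron 7, which keeps the normal stop codon, had 0, 7 and 5 inclusion reads in siSFSWAP, against 14, 11 and 17 in siNT (levels 0.00189 ± 0.00173 in siSFSWAP and 0.00668 ± 0.00177 in siNT, SD, n = 3 each, adjusted p = 0.072). Exon 6, with 890 to 1446 inclusion reads per library, was at a level of 0.993 or above in all 12 libraries.

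HADHB, the thiolase subunit of the trifunctional protein, which lies head to head with HADHA on chromosome 2, had 0 called events. Exon 3 (chr2:26254430-26254474, 45 nt, in frame) came nearest, with 6, 3 and 1 skipping reads in siSFSWAP and 0 in each siNT library. Its level was 0.955, 0.971 and 0.991 in siSFSWAP, against 1 in each siNT library (adjusted p = 0.055), and by limma on the log2 odds the adjusted p was 0.045 or 0.048, depending on the pseudocount. Exon 3 reached the minimum of 10 skipping reads only through siSFSWAP, the group where skipping is higher. These p-values are therefore not independent support for the difference. With UPF1 knockdown exon 3 was at 0.975, 1 and 1 in siSFSWAP/siUPF1 and at 1 in each siNT/siUPF1 library, where it had too few skipping reads for a test. Exon 15 was at 0.974, 0.971 and 0.986 in siSFSWAP, against 1, 0.99 and 0.994 in siNT (adjusted p = 0.36). Exon 15 was also at 0.978 ± 0.0235 in siSFSWAP/siUPF1 and at 1 in each siNT/siUPF1 library (adjusted p = 0.12). For HADHB, 9 exons were tested without and 10 with UPF1 knockdown, and 2 and 3 of them had an unadjusted p under 0.05.

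A 122 nt exon within intron 15 of HADHB, chosen for its values, had opposite signs in the UPF1 backgrounds. It had 1, 3 and 1 inclusion reads in siSFSWAP and 1, 0 and 0 in siNT, but 0, 1 and 0 in siSFSWAP/siUPF1 and 3, 5 and 4 in siNT/siUPF1. The groups overlapped in neither pair. The test of the difference between backgrounds gave an adjusted p of 0.99 (limma-moderated fit), and at 0 to 5 inclusion reads per library a difference was not detectable. UPF1 knockdown with non-target siRNA gave an adjusted p of 0.43.

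**Figure D3:**
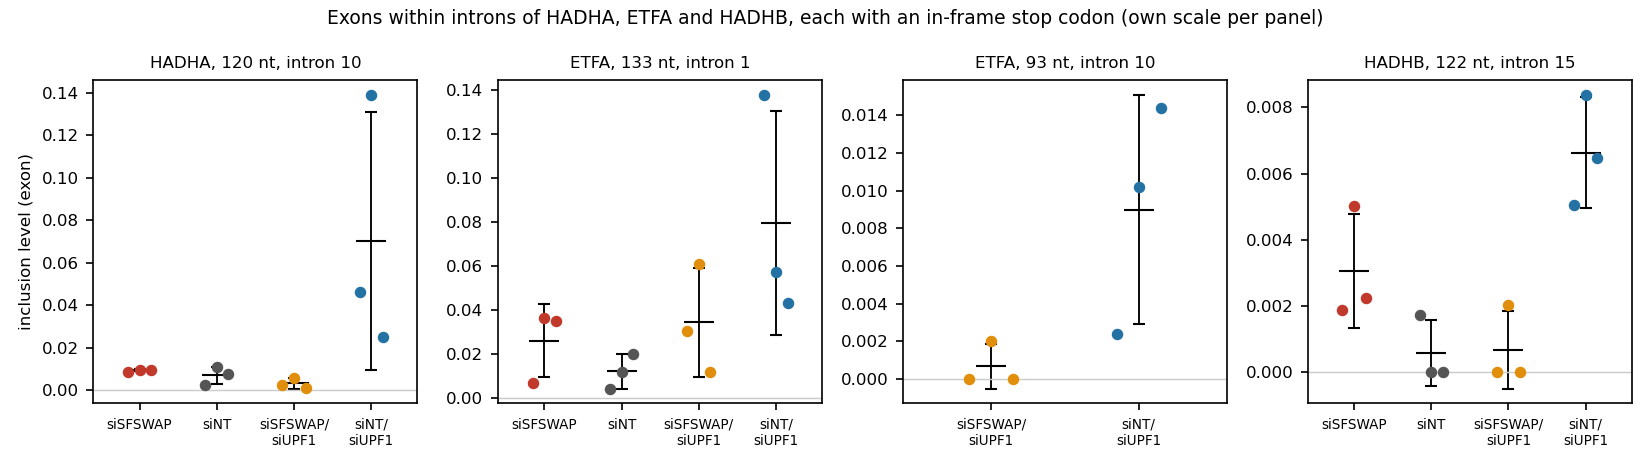
Inclusion level of 4 exons within introns of HADHA, ETFA and HADHB, each with an in-frame stop codon and each on its own vertical scale, 1 point for each library and the mean and SD of 3 libraries as bars per group. In HADHA the siNT/siUPF1 libraries lie at 0.0251 to 0.139 and the other 9 at 0.0109 or below, and the ETFA exon in intron 10 has values with UPF1 siRNA only.

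Few events of the remaining genes had enough reads of both forms for a test. ECHS1, the short-chain enoyl-CoA hydratase, had exon 6 at a level of 0.996 or above in all 12 libraries on 1151 to 1878 inclusion reads, and its 220 nt intron event, with 1 group mean at 1.0 and the others at 0.934 to 0.971, had fewer than 10 spliced reads and was not tested. Exon 4 of ECHS1 was at 1 in each siSFSWAP/siUPF1 library, against 0.988, 0.989 and 0.997 in siNT/siUPF1 (adjusted p = 0.23). ACAA2, the mitochondrial thiolase, had 3 exon events without UPF1 knockdown and 0 with it, of which exon 3 was at 0.964, 1 and 1 in siSFSWAP and 1 in each siNT library, and none could be tested. CPT1A, which starts the carnitine shuttle, had 6 events without and 2 with UPF1 knockdown, all with fewer than 10 skipping reads. Its exon 3 was at 1 in each siSFSWAP/siUPF1 library, against 1, 0.889 and 0.968 in siNT/siUPF1. CPT2, which ends the shuttle, had 1 testable event, a 36 nt exon within intron 4 at 0.122 ± 0.0583 in siSFSWAP and 0.106 ± 0.105 in siNT (SD, n = 3 each, adjusted p = 0.71). CPT2 exon 4 was at 1 in each siSFSWAP/siUPF1 library, against 1, 1 and 0.979 in siNT/siUPF1.

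For the 7 genes taken for their role in the pathway, 22 exons were tested without UPF1 knockdown and 0 called (3 at an unadjusted p under 0.05), and 29 with UPF1 knockdown, where 2 were called, both lower (7 at an unadjusted p under 0.05). Over all exons 7.76% were called higher and 4.21% lower without UPF1 knockdown, with 8555 of 33839 at an unadjusted p under 0.05, and 7.52% were called with it, with 7128 of 34006 at an unadjusted p under 0.05. For the difference of the SFSWAP effect between backgrounds 0 of their 31 exons were called (1 at an unadjusted p under 0.05), where 0.00771% of all exons were called. In SFSWAP knockdown cells UPF1 knockdown called 0 of 17 member exons (0 at an unadjusted p under 0.05, and 0 by limma), and 1 of 17 did not overlap, where 0.0816% of all exons were called and 9.45% did not overlap. On log2 odds (pseudocount 0.5) limma called 2 member exons for SFSWAP knockdown without UPF1 knockdown, both of them forms of HADHB exon 3, and 0 with it.

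**Figure D4:**
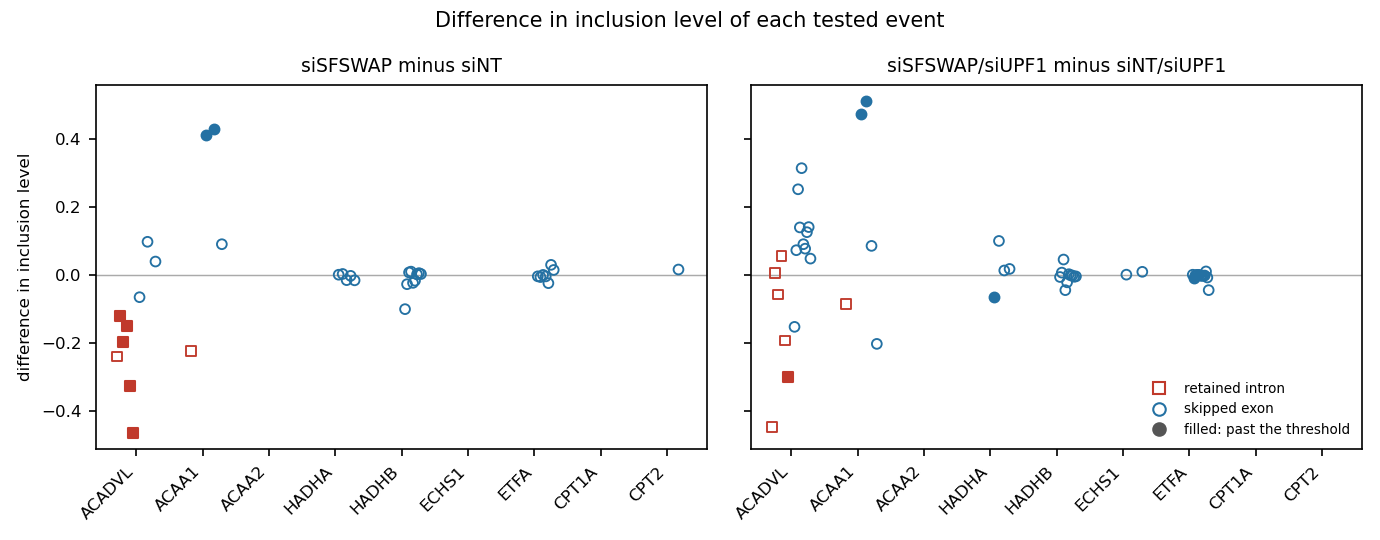
Difference in inclusion level for SFSWAP knockdown (siSFSWAP minus siNT, and siSFSWAP/siUPF1 minus siNT/siUPF1) of each tested event of the 9 genes, squares for retained introns and circles for skipped exons, filled where the event passed an adjusted p of 0.05. ACADVL introns lie between -0.464 and -0.121 without UPF1 knockdown and between -0.446 and 0.0551 with it, and the forms of ACAA1 exon 9 lie at 0.411 to 0.51.

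The reads at all exon events that a gene has in both tables give a rough level of its RNA, per 1000000 such reads over 64303 events. In bulk RNA a change in the number of cells that make a transcript and a change in its amount per cell cannot be told apart. ACADVL had 92.7, 96.8 and 87.8 in siSFSWAP, against 47.0, 62.9 and 40.8 in siNT, a ratio of 1.84 in groups that did not overlap. With UPF1 knockdown it had 69.7, 103 and 65.9 in siSFSWAP/siUPF1, against 58.1, 94.6 and 70.8 in siNT/siUPF1, a ratio of 1.07 with overlap. ACADVL reads in siNT/siUPF1 were 1.48 times those in siNT (two-sided exact permutation test, p = 0.2), and in siSFSWAP/siUPF1 0.862 times those in siSFSWAP (p = 0.4, exact permutation test). ACADVL in siNT was thus the lowest of the 4 groups. Of the introns with levels in all 4 groups, introns 12, 17 and 18 had their highest mean in these siNT libraries. Intron 1 did not, with its highest mean in siNT/siUPF1 (0.891, against 0.638 in siNT). Whether ACADVL reads and intron levels are linked was not tested.

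ACAA1 had 57.2, 51.5 and 65.6 reads per 1000000 in siSFSWAP, against 53.3, 40.4 and 49.8 in siNT (ratio 1.21, overlap), and a ratio of 0.766 with UPF1 knockdown, also with overlap. ACAA1 reads in siSFSWAP/siUPF1 were 0.724 times those in siSFSWAP without overlap (exact permutation test, p = 0.1). HADHA had 214, 247 and 221 in siSFSWAP, against 150, 202 and 161 in siNT, a ratio of 1.33, and with UPF1 knockdown 243, 231.9 and 233 in siSFSWAP/siUPF1, against 231.7, 195 and 210 in siNT/siUPF1, a ratio of 1.11 (exact permutation test, p = 0.1 for each, the smallest possible). HADHB, its partner subunit, had a ratio of 0.868 (p = 0.3) and ETFA of 0.917 (p = 0.4, exact permutation tests), and ETFA was the gene with most reads, 515 to 667 per library. ECHS1 reads were 0.836 times as high in siSFSWAP/siUPF1 as in siNT/siUPF1 and 1.17 times as high in siNT/siUPF1 as in siNT, both without overlap (exact permutation test, p = 0.1 each).

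CPT1A, CPT2 and ACAA2 share no event between the tables, so their reads are set per 1000000 reads of 1 table and compared within it. CPT1A had 8.41, 8.28 and 8.72 in siSFSWAP, against 4.82, 5.21 and 3.22 in siNT, a ratio of 1.92 without overlap (exact permutation test, p = 0.1). With UPF1 knockdown its ratio was 1.2 (p = 0.3, exact permutation test). ACAA2 had 5.25, 5.2 and 4.36 in siSFSWAP, against 3.71, 3.5 and 4.28 in siNT, a ratio of 1.29 (exact permutation test, p = 0.1), and CPT2 a ratio of 1.26 (exact permutation test, p = 0.3). Of the 6 genes with shared events, 2 did not overlap for SFSWAP knockdown, 2 for SFSWAP knockdown with UPF1 knockdown, 1 for UPF1 knockdown and 1 for UPF1 knockdown in SFSWAP knockdown cells. Over 7208 genes with at least 100 mean reads the shares were 33.5%, 21.6%, 27.7% and 24.6%. With size factors by the median of ratios, HADHA and ECHS1 overlapped for SFSWAP knockdown in the UPF1 knockdown background and ECHS1 for UPF1 knockdown, while ETFA no longer overlapped for SFSWAP knockdown (ratio 0.885, exact permutation test, p = 0.1).

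**Figure D5:**
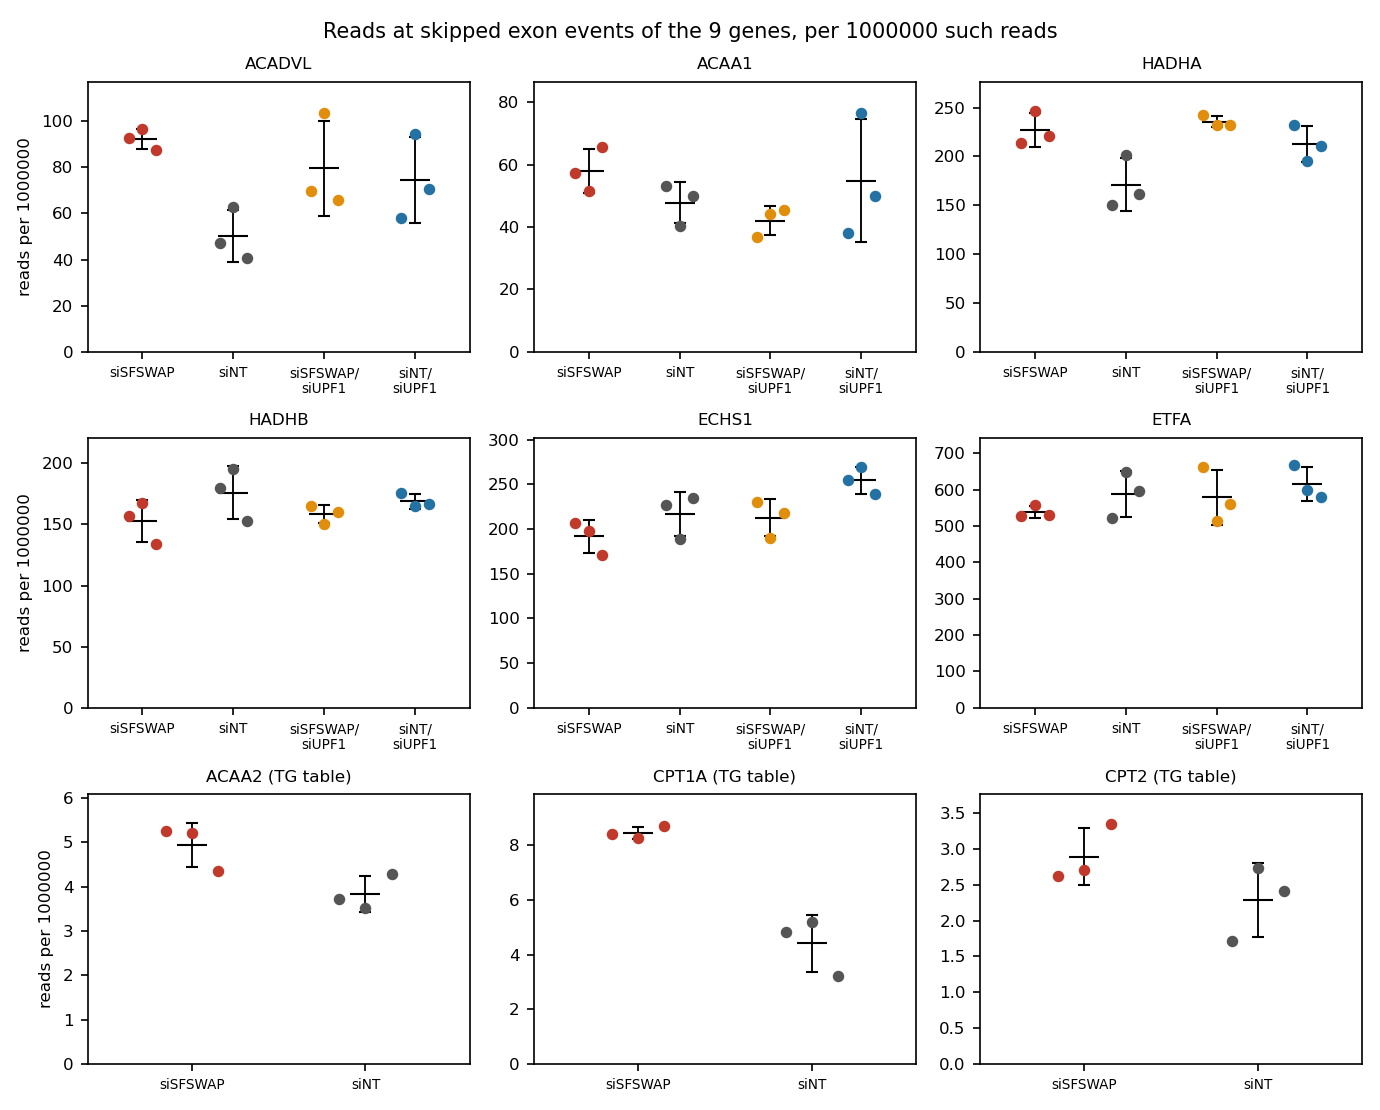
Reads at skipped exon events of each of the 9 genes per 1000000 such reads, for ACAA2, CPT1A and CPT2 within the table without UPF1 knockdown (TG table), 1 point for each library and the mean and SD of 3 libraries as bars per group. For ACADVL the siSFSWAP libraries lie at 87.8 to 96.8 and the siNT libraries at 40.8 to 62.9, and for CPT1A the siSFSWAP libraries lie at 8.28 to 8.72 and the siNT libraries at 3.22 to 5.21.

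Other genes of the pathway, 71 in 6 lists, had no called intron. Of their 23 introns tested without UPF1 knockdown and 17 with it, 0 were called, with a median log2 odds ratio of -0.22 and 0.14 (all introns -0.25 and -0.07). Over all introns 10.4% were called without UPF1 knockdown and 3.57% with it, so on so few introns nothing is read from these counts. Of their 134 exons in 42 genes tested without UPF1 knockdown, 17 were called, 9 higher and 8 lower (12.7% in all), with a median log2 odds ratio of 0.51 (0.27 over all exons). With UPF1 knockdown 11 of 167 were called, 3 higher and 8 lower (6.59%, median 0.43, all exons 0.08). For UPF1 knockdown 0 of 117 exons were called with non-target siRNA (1.17% of all exons) and 0 of 120 with SFSWAP siRNA (0.0816% of all exons). Over all exons 7.76% were called higher and 4.21% lower without UPF1 knockdown, and 7.52% in either direction with it.

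By list, without and with UPF1 knockdown, the carnitine shuttle had 0 of 0 and 0 of 1 exons called, and the acyl-CoA dehydrogenases and electron transfer proteins 1 of 26, in ACADM, and 0 of 31. The mitochondrial hydratases, hydroxyacyl-CoA dehydrogenases, isomerases and thiolases had 4 of 34 and 3 of 50, peroxisomal β- and α-oxidation 4 of 38 and 4 of 51, fatty acyl-CoA synthetases 6 of 21 and 1 of 19, and regulators of fatty acid oxidation 2 of 15 and 3 of 15. TFAM, the mitochondrial transcription factor, had a 93 nt exon at 0.826, 0.803 and 0.866 in siSFSWAP/siUPF1, against 0.975, 0.964 and 0.941 in siNT/siUPF1 (log2 odds ratio -2.26, SE 0.41, adjusted p = 5.2e-06). ECHDC1, a decarboxylase of ethylmalonyl-CoA, had a 53 nt exon at 0.699, 0.661 and 0.607 in siSFSWAP, against 0.916, 0.853 and 0.914 in siNT (-2.15, SE 0.46, adjusted p = 0.00018). HSD17B4, the peroxisomal multifunctional enzyme that precedes the thiolase step, had a 20 nt exon at 0.663, 0.689 and 0.871 in siSFSWAP/siUPF1, against 0.989, 0.981 and 1 in siNT/siUPF1 (-4.93, SE 1.42, adjusted p = 7.8e-05). In each of these comparisons the level fell and the groups did not overlap. Without UPF1 knockdown the HSD17B4 exon was at 0.863, 0.985 and 0.672 in siSFSWAP, against 0.983, 1.0 and 0.961 in siNT, with overlap.

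Inclusion rose at ABCD4, a relative of the peroxisomal fatty acid transporters, where a 90 nt exon was at 0.713, 0.52 and 0.677 in siSFSWAP, against 0.189, 0.183 and 0.173 in siNT (log2 odds ratio 2.81, SE 0.75, adjusted p = 0.0038). ACAT1, the mitochondrial acetoacetyl-CoA thiolase, had a 101 nt exon at 0.973 ± 0.0126 in siSFSWAP/siUPF1 and 0.881 ± 0.0398 in siNT/siUPF1 (SD, n = 3 each, adjusted p = 0.0035, limma-moderated test). SLC27A4, a fatty acid transport protein, was at 0.99 ± 0.0172 in siSFSWAP and 0.734 ± 0.206 in siNT, and ACSF3, the mitochondrial malonyl-CoA synthetase, at 0.105 ± 0.0786 in siSFSWAP and 0.0186 ± 0.0055 in siNT (SD, n = 3 each, adjusted p = 0.0093 and 0.018 from the limma-moderated test). ACADM, the medium-chain acyl-CoA dehydrogenase, fell to 0.904, 0.967 and 0.931 in siSFSWAP, against 1 in each siNT library. The log2 odds ratio was -5.04 (SE 3.13, adjusted p = 0.028, limma-moderated test). Since siNT had no skipping reads, this odds ratio rests on the count added for an empty form. The ACADM exon reached the minimum of skipping reads only through siSFSWAP, the group where skipping is higher. This p is therefore not independent support for the difference. With UPF1 knockdown the ACADM means were 0.944 in siSFSWAP/siUPF1 and 0.921 in siNT/siUPF1, with overlap.

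The introns of other genes whose 4 group means lay nearest to ACADVL intron 18, by Euclidean distance over 2367 introns with at least 50 mean reads in both tables, were in PCNX3 (distance 0.07), MCAM (0.13), SGSM3 (0.15), ISYNA1 (0.16) and ULK3 (0.18). The PCNX3 intron had means of 0.193 in siSFSWAP, 0.567 in siNT, 0.266 in siSFSWAP/siUPF1 and 0.551 in siNT/siUPF1. ACAA1 intron 8 lay nearest to introns of CCNT2 (0.073), TOR2A (0.079), AUP1 (0.09), SPIN2B (0.096) and TTC9C (0.11) over 2371 introns. These distances describe the 12 libraries, and ACADVL and ACAA1 were chosen on the same means.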

How the data were processed

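RNA-seq of polyA RNA from 12 libraries of 293A-TOA cells was analysed in 4 groups, taken from the sample labels. The members and gene lists were chosen with earlier results of these data known. Reads were trimmed by the authors with cutadapt 1.9.1, aligned with STAR 2.7 to GRCh38.p8 (submitters' processing notes) and counted with rMATS in JCEC mode, on a RefSeq annotation with predicted decoy exons. The deposited read counts, of inclusion and of skipping, are raw, other values per event are effective lengths, and the deposited inclusion levels are fractions from 0 to 1, with the 3 libraries of a group in 1 cell. The authors' own p-values, FDR values and level differences were not used. Libraries are named by their place in that cell. Recomputed levels differed from the deposited ones by at most 0.0005. Which side of a table holds which group was taken from the study's definition of the level difference (non-target minus SFSWAP), and SFSWAP reads were checked against it.

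A two-sided quasi-binomial logistic regression was fitted to events with 10 or more reads of each form and, averaged over libraries, 10 or more in all. Reads of a form were summed over the groups compared, so an event could pass through 1 group alone. The Pearson dispersion was moderated across all events with limma 3.58.1 (R 4.3.3) and floored at 1, and the p-values of a whole table were adjusted together (Benjamini-Hochberg). Where a group had 0 reads of a form, 0.5 was added. The difference between UPF1 backgrounds was a Wald test over 12 libraries. UPF1 comparisons used events with equal coordinates in both tables. The p-values rest on the spread between these cultures. Because of the moderation, that spread is drawn mostly from all events of a comparison and less from the event itself. With each event's own dispersion no member event was called. Scripts were tested on simulated counts. Some sequences are not reported here. Gene reads were compared by exact permutation tests, whose smallest p is 0.1 with 3 against 3, and no adjustment over the 9 genes is given. Splice site dinucleotides were found at 99.9% of introns and 98.9% of exons tested.

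All 9 genes are named, with the intron and exon of most reads and the called events of each, up to 2 called genes per pathway list, and the 5 most alike introns. ACADVL intron 1, ACAA1 exon 5 and 44 nt exon, and the uncalled HADHB, ETFA, ECHS1 and CPT2 events were added after their values were seen. A count of 0 allows up to 3 reads, for counting error only, and the limits given are shares of reads, not levels. Alternatives were limma on log2 odds (pseudocount 0.5 or 1), no filter, a minimum of 30 reads, no dispersion floor, each event's own dispersion, 1 event per feature, an added difference of 0.2, median-ratio size factors for gene reads, and leaving out each library.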

Additional observations from a re-analysis of the deposited data

How the results depend on the processing

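No paired analysis was possible because the tables give 3 values per group without saying which replicate each is. With all reads kept and no filter, 0 member introns (main count 5) and 0 exons (2) were called for SFSWAP knockdown, 0 introns (1) and 0 exons (4) for it in the UPF1 background, and 0 exons (1) for UPF1 knockdown. The same 5 counts were 0 with each event's own dispersion. Limma on the log2 odds gave 0 introns in both SFSWAP comparisons and 0 exons for UPF1 knockdown with either pseudocount, and 0 exons for SFSWAP in the UPF1 background with a pseudocount of 0.5. Its 2 exon calls for SFSWAP knockdown at that pseudocount were forms of HADHB exon 3. Over all events, limma (0.5), no filter and own dispersion called 0, 4 and 0 introns (main 610) and 1239, 115 and 0 exons (4052) for SFSWAP knockdown, 1, 0 and 0 introns (182) and 17, 29 and 0 exons (2558) for it in the UPF1 background, and 0, 19 and 0 exons (332) for UPF1 knockdown. An added difference of at least 0.2 left 2 introns for SFSWAP knockdown, 2 exons in the UPF1 background and 0 exons for UPF1 knockdown. Leaving out 1 library gave 3 to 5 and 0 to 3 introns in the SFSWAP comparisons, 0 to 1 intron and 0 to 1 exon for UPF1 knockdown, and 2 and 3 to 4 exons in the SFSWAP comparisons. The lowest intron count without UPF1 knockdown, 3, came without the siSFSWAP library listed 1st or 2nd.

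For gene reads without overlap, leaving out 1 library gave 2 to 4 genes for SFSWAP knockdown, 2 to 4 in the UPF1 background, 1 to 3 for UPF1 knockdown and 1 to 4 for it with SFSWAP siRNA. Median-ratio size factors gave 0 for SFSWAP in the UPF1 background and 0 for UPF1 knockdown. Reads at all events of 1 table, chosen after seeing the data, gave 4 without and 1 with UPF1 knockdown. Among the events examined singly, the calls of the HADHA 120 nt and ETFA 93 nt exons were lost in 20 fits, 3 fits called an event that the reported test did not, and 0 reversed. The ACADVL introns and ACAA1 exon 9 have no test of their own for SFSWAP knockdown, so the loss of their calls stands in the counts above. The cause of these changes was not tested. Depth limits the exons within introns, with 0 to 75 inclusion reads per library.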

Other observations

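One listed form of ACAA1 exon 6 was at 1, 0.941 and 1 in siSFSWAP and 0.93, 0.684 and 1 in siNT, and at 1, 0.897 and 1 in siSFSWAP/siUPF1 and 1 in each siNT/siUPF1 library, while another form of it, with other flanking exon ends, was at 1 in each siSFSWAP/siUPF1 library and 0.92, 0.98 and 0.956 in siNT/siUPF1. One form of ACADVL exon 11 was at 1 in all 6 libraries with SFSWAP siRNA, at 0.809, 1 and 0.886 in siNT and at 0.838, 0.932 and 1 in siNT/siUPF1. Among ACADVL introns with other ends than the MANE introns, the 256 nt stretch from the start of intron 17 to the end of intron 18 was at a mean of 0.98 in siSFSWAP, 0.983 in siNT, 1.0 in siSFSWAP/siUPF1 and 0.995 in siNT/siUPF1. The 89 nt form that starts with intron 12 was at 1.0 in siSFSWAP and 0.948 in siNT, and at 0.942 in siSFSWAP/siUPF1 and 1.0 in siNT/siUPF1. These values were picked after they were seen and no p is given for them.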
